A study of Mus musculus with 24 samples.

Results

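The ionotropic glutamate receptor genes of the AMPA class (Gria1, Gria2, Gria3 and Gria4) and of the NMDA class (Grin1, Grin2a, Grin2b, Grin2c, Grin2d and Grin3a) were examined in RNA-seq of the hippocampal CA1 subfield of mice after pilocarpine-induced status epilepticus (SE). They were found by gene symbol, and all 10 were among the 18647 genes of the deposited table and among the 18153 genes tested. Adult C57Bl/6N mice, at least 60 days old and at least 20 g, received 1 mg/kg scopolamine methyl nitrate and, 20 min later, 335 mg/kg pilocarpine hydrochloride, and 40 min after SE onset 4 mg/kg diazepam. Only pilocarpine-injected animals that went into SE were kept. Controls (Ctr) had saline in place of pilocarpine and otherwise the same drugs, so scopolamine and diazepam were common to all 24 libraries. CA1 was microdissected 6, 12, 24, 36 or 72 h after SE (5 groups) or at 12, 36 or 72 h from controls (3 groups), with 3 libraries per group. The labels do not give the sex of the animals, and they number the libraries of a group without saying that each is a separate animal, so p-values measure the spread between these libraries.

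AMPA and NMDA receptors are tetrameric cation channels opened by glutamate at excitatory synapses. AMPA receptors carry most of the fast excitatory current, and inclusion of the Gria2 product makes them nearly impermeable to calcium. NMDA receptors need the Grin1 product together with Grin2 or Grin3 subunits, bind glycine or D-serine as well as glutamate, and admit calcium during synaptic plasticity, for which CA1 is the classical preparation.

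On the mouse assembly GRCm39 the AMPA genes lay at chr11:56902153-57221080 (Gria1, plus strand), chr3:80588757-80710538 (Gria2, minus), chrX:40489476-40767490 (Gria3, plus) and chr9:4417604-4796326 (Gria4, minus). The NMDA genes lay at chr2:25181186-25209226 (Grin1), chr16:9385762-9813424 (Grin2a), chr6:135690231-136150548 (Grin2b), chr11:115139992-115158525 (Grin2c), chr7:45481304-45527802 (Grin2d) and chr4:49661611-49845847 (Grin3a), each on the minus strand. Reads were counted without regard to strand. Counted genes on the other strand shared 11.8% of the exonic bases of Grin1 (Lrrc26 and Grin1os) and 8.18% of those of Grin2d. Of Grin2b, 4.03% of the exonic bases were shared with other annotated genes, of which Gm26653 was counted. The counts of these 3 genes are therefore less certain than those of the other members.

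The upstream sequences of Gria2, Grin1 and Grin2c, the members with a RefSeq window whose SE effect differed between time points by the tests given later, are shown, each as the 250 bases before the RefSeq gene start on assembly GRCm38.p6, read 5′ to 3′ on the gene's strand. The windows were chr3:80802836-80803085 for Gria2, chr2:25319188-25319437 for Grin1 and chr11:115267244-115267493 for Grin2c, all on the minus strand. Capitals mark the letters GGGCGG (the GC box) and CACGTG (the E-box) on either strand.
Gria2: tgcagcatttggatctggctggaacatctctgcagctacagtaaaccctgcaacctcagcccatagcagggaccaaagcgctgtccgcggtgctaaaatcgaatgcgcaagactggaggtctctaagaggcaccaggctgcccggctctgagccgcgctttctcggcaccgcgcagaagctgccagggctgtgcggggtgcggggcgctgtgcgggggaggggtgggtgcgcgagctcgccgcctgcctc
Grin1: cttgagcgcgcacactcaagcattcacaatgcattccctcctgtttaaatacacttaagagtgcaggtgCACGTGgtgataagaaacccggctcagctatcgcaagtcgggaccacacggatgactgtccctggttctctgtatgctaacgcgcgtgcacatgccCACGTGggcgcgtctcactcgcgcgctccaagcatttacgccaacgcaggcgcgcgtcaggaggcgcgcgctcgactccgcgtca
Grin2c: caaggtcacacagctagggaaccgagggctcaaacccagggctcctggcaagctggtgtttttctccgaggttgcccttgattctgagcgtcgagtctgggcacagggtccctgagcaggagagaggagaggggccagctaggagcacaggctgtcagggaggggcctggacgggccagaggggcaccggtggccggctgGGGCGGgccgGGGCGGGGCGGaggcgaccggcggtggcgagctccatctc

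GGGCGG occurred 3 times in the Grin2c window, with 1 pair of matches sharing a base, and at no place in the windows of Gria2 and Grin1. CACGTG occurred 2 times in the Grin1 window and in neither of the others. Among 32851 RefSeq windows of this length, 32.7% held GGGCGG and 6.02% held CACGTG on either strand. These matches describe letters in a window, and no binding was measured here. Gria4 and Grin2d were the other members with a window in the table.

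The libraries held 2663936 to 30133731 counts (median 13521590), and the smallest was Ctr 72 h replicate 3. The lowest count of any member in any library was 72, for Grin2d. Several libraries stood apart in marker genes of CA1 or of neighbouring tissue. Ctr 12 h replicate 2 had 43.2 CPM (TMM-normalized counts scaled to the library size) of the CA1 marker Fibcd1 against 272.6 and 271.6 in the other Ctr 12 h libraries, but 537 CPM of the CA1 marker Wfs1 against 122.3 and 67.8, and its 8 CA1 markers summed to 1321 CPM against 1155 and 813.5. Ctr 12 h replicate 3 had a summed level of 5 CA3 pyramidal markers of 1510 CPM against 761.5 and 720.6. Summed sensory ganglion markers reached 1962 CPM in Ctr 72 h replicate 2 and ranged from 368.9 to 1063 CPM in 5 SE libraries, against 3.96 to 77.2 CPM in the others. Prox1, which marks dentate granule cells, was at 134.4 CPM in SE 72 h replicate 1 and at most 56.8 CPM elsewhere. The part of these differences in the results below was not tested. Calls of differential expression that change without one of these libraries are given with that value. Levels relative to marker lists, shares and ratios were not recomputed with a library left out.

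Per kilobase of the canonical transcript, Gria1 had the highest level of the 10 genes in the 9 control libraries, 195 ± 53.8 CPM per kb (SD, n = 9). Gria2 followed at 93.9 ± 18.4, Grin1 at 79.3 ± 15.3 and Gria3 at 59.2 ± 6.27 CPM per kb, and the ranges of neighbours in this order overlapped. After a gap came Grin2b at 21.7 ± 5.65, Grin2a at 20.7 ± 7.17, Gria4 at 17.01 ± 1.97, Grin2c at 14.1 ± 1.46 and Grin3a at 10.4 ± 2.00 CPM per kb, again with overlapping neighbours. Grin2d was lowest at 4.2 ± 0.62 CPM per kb, and its highest control library (5.15) lay under the lowest of Grin3a (6.15). In these controls Gria1 made up 52.6% ± 4.90 of the summed AMPA level per length and Grin1 52.7% ± 3.48 of the NMDA level (SD, n = 9). These shares depend on the length used: with no division by length, Grin2b held the largest NMDA share at 38.6% and Grin1 25.6%, and Gria1 and Gria2 held 43.8% and 39.2% of the AMPA sum. With the length of all exons together, Gria1 held 66.5% and Grin1 36.7%.

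**Figure D1:**
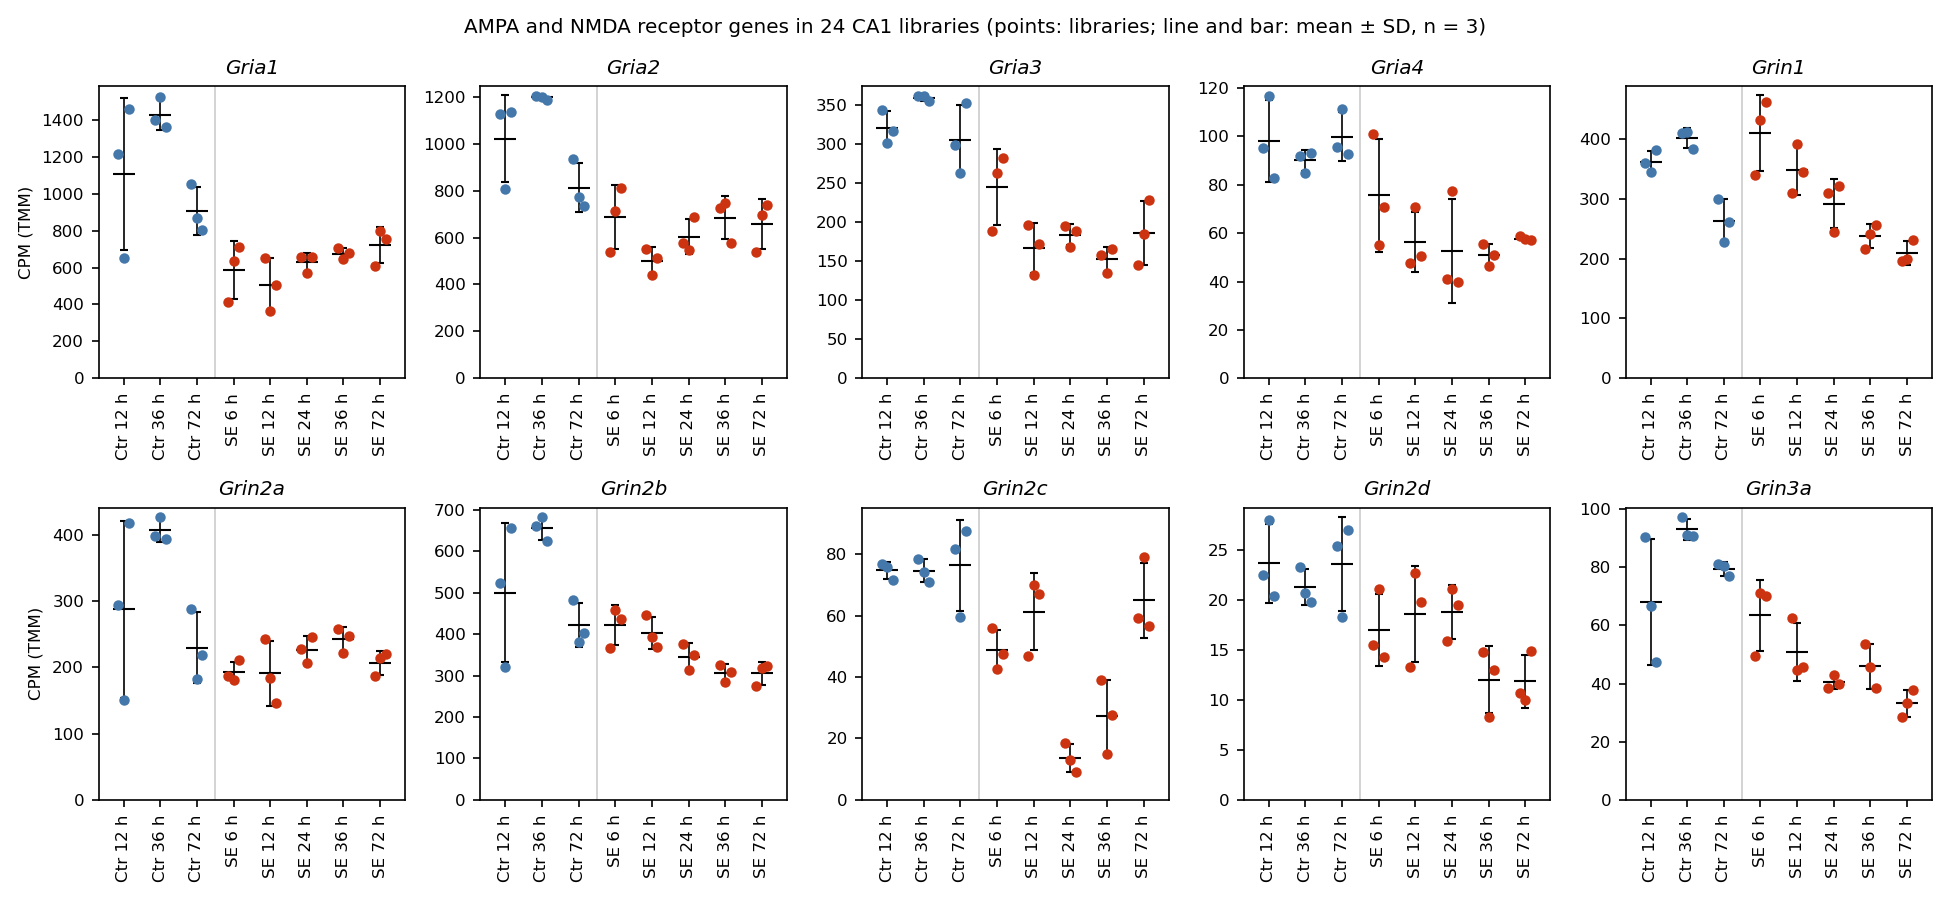
Normalized counts (CPM, TMM) of the 10 receptor genes in each of the 24 libraries, by group, with the mean and SD of each group (n = 3). Grin2c dropped to between 9.18 and 18.4 CPM at SE 24 h and lay between 56.7 and 79.1 CPM at SE 72 h, whereas Grin3a lay between 28.6 and 37.9 CPM at SE 72 h.

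The 4 AMPA receptor genes were lower than in controls from 12 to 36 h, the 6 NMDA receptor genes were all lower at 36 h, and Gria3, Gria4, Grin2d and Grin3a were lower at 72 h. At 12 h, 4 of the 10 members passed the test (edgeR's quasi-likelihood test, Benjamini-Hochberg adjusted p up to 0.05 over 18153 genes, and a log2 fold change, Log2FC, of 0.66 or more in size), all lower and all AMPA subunits, against 11.4% of all genes called lower and 13.9% called higher. At 36 h, 10 of 10 were lower, against a background of 8.91% lower and 12.7% higher. At 72 h, 4 of 10 were lower, against 4.21% lower and 15.2% higher. These counts also depend on the level of each control group. The 10 members summed to 3868 ± 893.8, 4732 ± 149.2 and 3222 ± 368.5 CPM in Ctr 12, 36 and 72 h (SD, n = 3). In SE 12, 36 and 72 h they summed to 2306 ± 238.4, 2436 ± 102.4 and 2455 ± 303.3 CPM. Such a sum rests mostly on the abundant members. The median Log2FC of the members was -0.50, -0.92 and -0.40 at 12, 36 and 72 h, beside 0.01, 0.00 and 0.10 over all genes. In CPM, all 3 SE libraries lay below all 3 controls for 5 members at 12 h, 10 at 36 h and 6 at 72 h, where 23.2%, 26.2% and 13.4% of all genes were separated downward. SE 6 h and SE 24 h have no control of their own time and were compared with the mean of the 3 control groups, so they share controls with the other comparisons: 1 member was lower at 6 h (background 6.21%) and 6 at 24 h (background 9.21%). The 6 microglial marker genes summed to 1107 ± 228.7 CPM in SE 72 h and 296.2 ± 44.2 in Ctr 72 h (SD, n = 3), with 6 of 6 higher, and their part in the receptor levels was not tested. In bulk tissue, fewer cells of a type and less RNA per cell cannot be told apart.

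**Figure D2:**
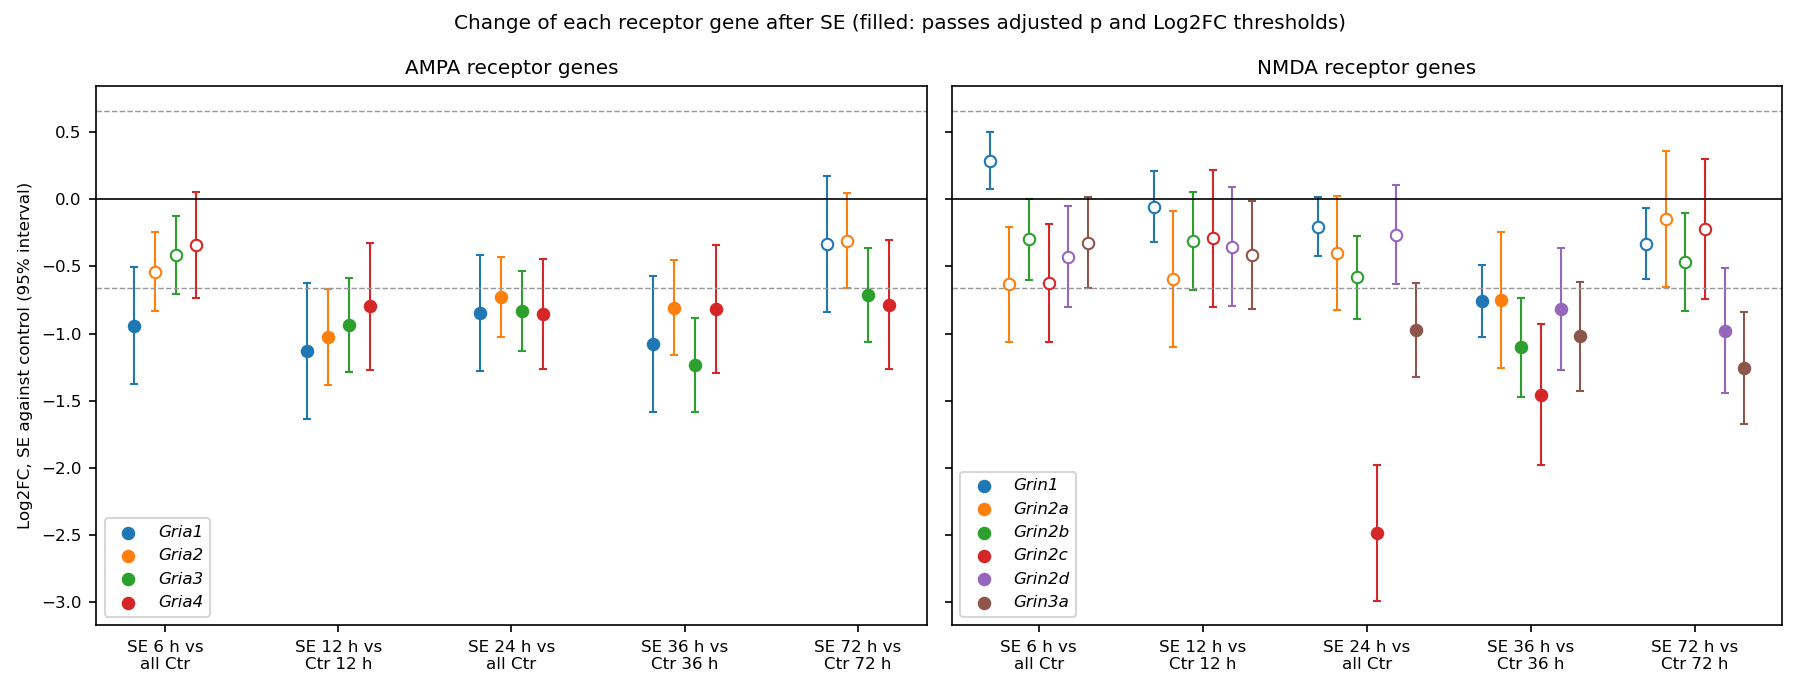
Log2FC of each receptor gene with its 95% interval in 5 comparisons of SE with controls, AMPA genes on the left and NMDA genes on the right. Filled points passed the adjusted p and Log2FC thresholds (dashed lines at 0.66 in either direction), which all 10 genes did at 36 h, and Grin2c at 24 h had the lowest value, -2.48.

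Gria1, which encodes the AMPA subunit most tied to activity-dependent insertion at CA1 synapses, had 1215, 654.6 and 1459 CPM in the Ctr 12 h libraries and 654.0, 364.0 and 504.4 CPM in SE 12 h. The highest SE library lay just under the lowest control, Ctr 12 h replicate 2. Its Log2FC was -1.13 (s.e. 0.24, edgeR adjusted p = 0.00119), which left 45.7% of the control level. At 36 h the controls had 1400, 1527 and 1364 CPM and the SE libraries 707.3, 645.7 and 676.7 CPM, a Log2FC of -1.08 (s.e. 0.24, edgeR adjusted p = 0.0019). The groups were far apart. At 72 h the SE libraries, at 610.3, 799.6 and 754.8 CPM, still lay below the controls, at 1055, 867.1 and 804.2 CPM, but the Log2FC of -0.33 did not pass the test (95% interval -0.84 to 0.17, edgeR adjusted p = 0.325). Gria1 was the single member called at 6 h, with 413.5, 637.4 and 712.9 CPM, the last of these above the lowest control, and a Log2FC of -0.94 (s.e. 0.21, edgeR adjusted p = 0.00133).

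Gria2, the subunit that limits calcium entry, had 1126, 808.3 and 1134 CPM in Ctr 12 h and 552.4, 440.2 and 513.9 CPM in SE 12 h. All SE libraries lay below the controls, with a Log2FC of -1.03 (s.e. 0.17, edgeR adjusted p = 0.000105). At 36 h its controls were within 1187 to 1206 CPM and the SE libraries within 578.7 to 749.4 CPM, a Log2FC of -0.81 (s.e. 0.17, edgeR adjusted p = 0.00103). At 72 h the groups overlapped, with 537.6, 698.5 and 738.2 CPM after SE beside 933.5, 771.8 and 735.3 CPM in controls, and the Log2FC was -0.31 (95% interval -0.66 to 0.04, edgeR adjusted p = 0.184). The SE effect on Gria2 at 72 h was 0.72 higher on the log2 scale than at 12 h (s.e. 0.24, edgeR adjusted p = 0.0365). Both sides entered this difference. From 12 to 72 h the SE mean went from 502.2 to 658.1 CPM and the control mean from 1023 to 813.5 CPM (n = 3). Ctr 72 h against Ctr 12 h had a Log2FC of -0.33 that was not called (edgeR adjusted p = 0.291).

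Gria3, an X-linked AMPA subunit, had 343.8, 300.9 and 316.3 CPM in Ctr 12 h against 196.7, 132.1 and 172.1 CPM in SE 12 h, a Log2FC of -0.94 (s.e. 0.17, edgeR adjusted p = 0.000212). Its lowest Log2FC came at 36 h, when the controls had 361.3, 361.5 and 354.8 CPM and the SE libraries 157.9, 134.8 and 165.3 CPM. It was -1.23 (s.e. 0.17, edgeR adjusted p = 1.25e-05), or 42.5% of control. At 72 h, with 145.2, 185.1 and 228.0 CPM after SE and 298.9, 263.6 and 352.8 CPM in controls, Gria3 was still lower, by a Log2FC of -0.71 (s.e. 0.17, edgeR adjusted p = 0.00335). That call was lost without Ctr 72 h replicate 3 (Log2FC -0.60) or without SE 72 h replicate 1 (Log2FC -0.56), while those of Gria4, Grin2d and Grin3a at 72 h held without each library in turn.

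Gria4, a less abundant AMPA subunit known from interneurons and from early development, had 95.1, 116.6 and 82.9 CPM in Ctr 12 h and 47.8, 70.7 and 50.4 CPM in SE 12 h. Its Log2FC was -0.80 (s.e. 0.23, edgeR adjusted p = 0.00881), and without Ctr 12 h replicate 2 it was -0.62 (edgeR adjusted p = 0.0606) and no longer called. The later values were close to the first, with a Log2FC of -0.82 at 36 h (s.e. 0.23, edgeR adjusted p = 0.00903) and -0.79 at 72 h (s.e. 0.23, edgeR adjusted p = 0.0149). At 72 h the SE libraries were within 57.0 to 58.6 CPM and the controls within 92.6 to 111.5 CPM, with no overlap. The summed level of 8 interneuron markers was 1223 ± 275.9 CPM in SE 12 h beside 835.3 ± 80.4 in Ctr 12 h and 657.8 ± 161.3 in SE 72 h beside 813.5 ± 195.2 in Ctr 72 h (SD, n = 3). Such a sum rests mostly on the abundant markers, with library medians from 20.8 CPM (Lhx6) to 314 CPM (Gad1). The part of interneurons in the level of Gria4 was not tested.

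Grin1, which encodes the obligatory NMDA subunit, had 360.9, 344.8 and 381.8 CPM in Ctr 12 h and 309.4, 392.5 and 345.2 CPM in SE 12 h. The groups overlapped, and the Log2FC of -0.06 had a 95% interval of -0.32 to 0.21 (edgeR adjusted p = 0.752). At 36 h the SE libraries had 215.6, 242.1 and 255.9 CPM and the controls 410.9, 412.6 and 382.9 CPM, a Log2FC of -0.76 (s.e. 0.13, edgeR adjusted p = 0.000131). The SE effect was 0.70 lower at 36 h than at 12 h on the log2 scale, a difference that passed the test across all genes (s.e. 0.18, edgeR adjusted p = 0.0356). It was lost without Ctr 12 h replicate 1 or 2, SE 12 h replicate 2 or 3, any Ctr 36 h library or SE 36 h replicate 1, with values from -0.73 to -0.61 and edgeR adjusted p from 0.0616 to 0.0907. At 72 h Grin1 was at 196.4, 199.1 and 232.2 CPM after SE and 300.8, 227.3 and 261.0 CPM in controls, with a Log2FC of -0.33 that was not called (edgeR adjusted p = 0.0594). The Ctr 72 h level was itself below Ctr 36 h, by a Log2FC of -0.61 (s.e. 0.13, edgeR adjusted p = 0.0177), under the 0.66 threshold.

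Grin2a and Grin2b encode the glutamate-binding NMDA subunits of the adult forebrain, of which Grin2b is the earlier in development. Grin2a had 294.8, 150.5 and 417.6 CPM in Ctr 12 h and 243.3, 183.1 and 145.5 CPM in SE 12 h. Its lowest control was Ctr 12 h replicate 2, and the groups overlapped. The Log2FC of -0.59 was not called (95% interval -1.10 to -0.09, edgeR adjusted p = 0.0598). Leaving out Ctr 12 h replicate 2 or SE 12 h replicate 1 made it a call, with a Log2FC of -0.86 (edgeR adjusted p = 0.00159) or -0.81 (edgeR adjusted p = 0.0196). At 36 h the SE libraries, with 258.0, 220.9 and 247.5 CPM, were below controls with 398.7, 427.0 and 394.4 CPM. This Log2FC of -0.75 (s.e. 0.24, edgeR adjusted p = 0.0233) missed the threshold without Ctr 36 h replicate 2 (edgeR adjusted p = 0.0673), SE 36 h replicate 2 (0.0781) or SE 36 h replicate 3 (0.053).

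Grin2b had 523.3, 321.6 and 656.7 CPM in Ctr 12 h and 446.5, 393.1 and 369.3 CPM in SE 12 h, overlapping groups with a Log2FC of -0.31 (edgeR adjusted p = 0.166). At 36 h it had 662.1, 682.6 and 626.1 CPM in controls and 326.3, 283.5 and 308.7 CPM after SE, and the Log2FC was -1.10 (s.e. 0.18, edgeR adjusted p = 7.8e-05). The SE libraries held 46.6% of the control level. At 72 h the SE libraries, at 274.0, 318.8 and 323.0 CPM, lay below the controls, at 483.5, 381.1 and 402.7 CPM, but the Log2FC of -0.47 was not called (95% interval -0.84 to -0.10, edgeR adjusted p = 0.0513). Grin2a overlapped its controls at 72 h, with a Log2FC of -0.15 (edgeR adjusted p = 0.701).

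Grin2c, an NMDA subunit known mainly from cerebellar granule cells and, in the forebrain, from astrocytes and some interneurons, had a course of its own. Its 9 control libraries lay within 59.7 to 87.7 CPM. The SE 6 h libraries had 56.0, 42.6 and 47.4 CPM and the SE 12 h libraries 46.9, 70.0 and 67.2 CPM, and neither group was called. All SE 12 h libraries lay under all Ctr 12 h libraries (76.9, 75.9 and 71.6 CPM), by a Log2FC of -0.29 (95% interval -0.80 to 0.22, edgeR adjusted p = 0.367). At SE 24 h it had fallen to 18.4, 13.02 and 9.18 CPM, far under every control, with a Log2FC of -2.48 against the control mean (s.e. 0.24, edgeR adjusted p = 8.91e-08) and 17.9% of the control level left. At 36 h it was at 38.9, 15.1 and 27.6 CPM beside 78.6, 74.3 and 71.1 CPM in controls, a Log2FC of -1.45 (s.e. 0.25, edgeR adjusted p = 0.000176). At 72 h it was at 59.2, 79.1 and 56.7 CPM, overlapping controls at 81.8, 59.7 and 87.7 CPM (Log2FC -0.22, 95% interval -0.74 to 0.30, edgeR adjusted p = 0.549).

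Grin2c was the member that changed between consecutive SE time points. From 12 to 24 h it fell by 2.19 on the log2 scale (s.e. 0.26, edgeR adjusted p = 0.000102), 1 of 10 members called there, against 1.72% of all genes called lower at an absolute Log2FC of at least 1. From 36 to 72 h it rose by a Log2FC of 1.25 (s.e. 0.25, edgeR adjusted p = 0.00345), again 1 of 10 members, against 3.08% of genes called higher. Without SE 36 h replicate 2 that rise was 0.97 and under the threshold of 1. From 24 to 36 h its Log2FC of 1.02 did not pass (edgeR adjusted p = 0.0647), though it did without SE 24 h replicate 1 (1.28, edgeR adjusted p = 0.0361) or without SE 36 h replicate 2 (1.30, edgeR adjusted p = 0.00641). From 6 to 12 h 0 of 10 members passed with edgeR, DESeq2 or limma-voom, with 2 at an unadjusted p under 0.05 (background 1.34%). From 24 to 36 h 0 passed with edgeR and limma-voom and 1 with DESeq2, with 3 at an unadjusted p under 0.05 (background 0.529%).

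Astrocyte markers were also lower at 24 and 36 h, though not all of them and not at these times alone. The summed level of the 8 astrocyte markers was 2891 ± 151.8 CPM at SE 24 h and 2877 ± 314.2 at SE 36 h, beside 5021 to 5476 CPM in the control group means and 5657 ± 295.1 at SE 72 h (SD, n = 3). Against the control mean at 24 h, 5 of the 8 were lower and 1 higher, and at 36 h 4 were lower and 2 higher. Aldoc, a glycolytic enzyme of astrocytes, stood at 40.6% ± 8.62 of its control mean at SE 24 h, Gja1, a gap junction protein, at 46.6% ± 5.57 and Slc1a2, the main glutamate transporter, at 46.7% ± 3.96, and Grin2c stood at 17.96% ± 6.13 (SD, n = 3). These 3 genes were chosen for display after their values were seen. Gja1 was already at 43.8% ± 14.7 at SE 12 h, when Grin2c stood at 81.5% ± 16.7. Aqp4, the astrocyte water channel, rose at 24 h (Log2FC 1.83, s.e. 0.17, edgeR adjusted p = 4.36e-08), so the list did not move one way. The part of astrocytes in the level of Grin2c was not tested.

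**Figure D3:**
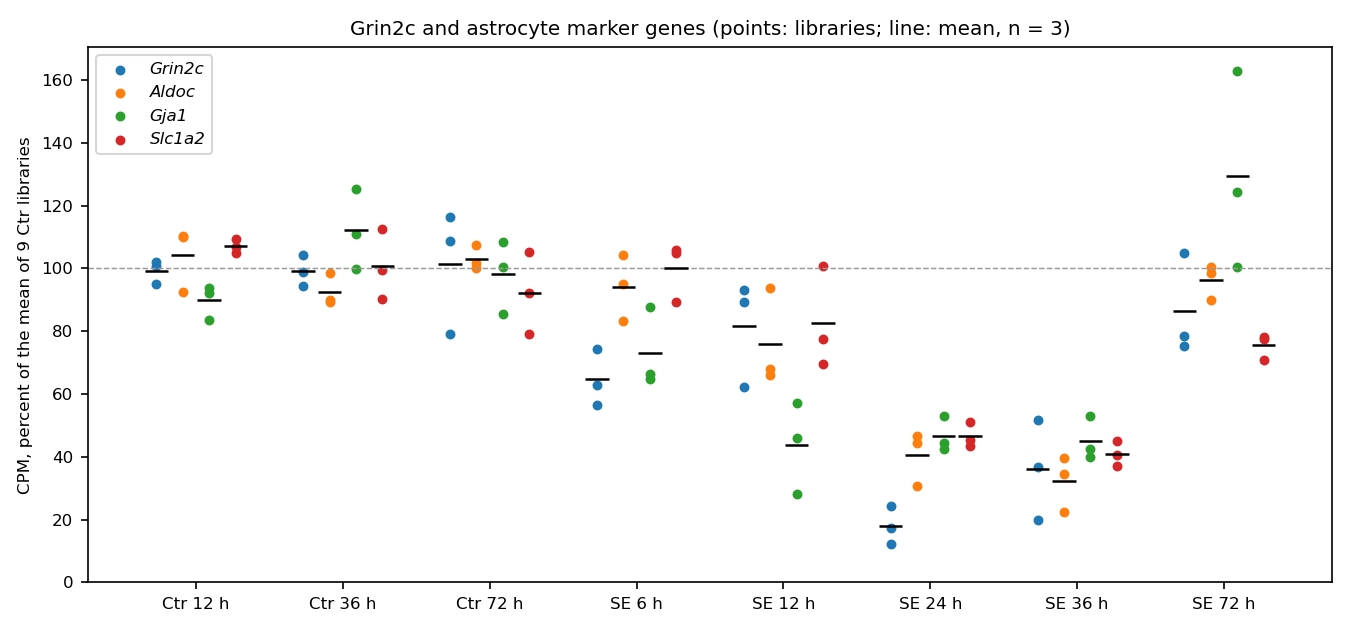
Grin2c and 3 of 8 astrocyte markers, picked after their values were seen from a list that was mixed (Aqp4 was higher at SE 24 h), in every library as a percentage of the mean of the 9 control libraries, with group means (n = 3). At SE 24 h Grin2c averaged 17.96% and the 3 astrocyte genes 40.6 to 46.7%, and at SE 72 h Grin2c averaged 86.3%.

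Grin2d and Grin3a, NMDA subunits of lower magnesium sensitivity, were the NMDA genes called at 72 h. Grin2d, known in the adult hippocampus mainly from interneurons, had 23.2, 20.7 and 19.8 CPM in Ctr 36 h and 14.8, 8.28 and 12.99 CPM in SE 36 h, a Log2FC of -0.82 (s.e. 0.22, edgeR adjusted p = 0.00656). That call was lost without SE 36 h replicate 2 (Log2FC -0.62). At 72 h it had 25.4, 18.3 and 27.0 CPM in controls and 10.7, 9.92 and 14.9 CPM after SE, with no overlap and a Log2FC of -0.98 (s.e. 0.22, edgeR adjusted p = 0.00261). Beside it, 3 of 8 interneuron markers were lower at 72 h (Slc32a1, Vip and Lhx6, each with groups that overlapped) and 1 was higher (Npy), with a list median of -0.58. At 12 h Grin2d was not called (Log2FC -0.35, edgeR adjusted p = 0.198). The part of interneurons in this result was not tested.

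Grin3a, a glycine-binding subunit that lowers calcium entry through NMDA receptors, had 90.6, 66.6 and 47.3 CPM in Ctr 12 h and 62.5, 44.8 and 45.7 CPM in SE 12 h. These overlapped, with a Log2FC of -0.41 (edgeR adjusted p = 0.0967). It was at 53.7, 45.8 and 38.4 CPM in SE 36 h against 97.2, 91.1 and 91.0 CPM in controls, a Log2FC of -1.02 (s.e. 0.19, edgeR adjusted p = 0.000458). At 72 h it was at 28.6, 33.2 and 37.9 CPM after SE and 81.1, 80.3 and 76.9 CPM in controls, a Log2FC of -1.26 (s.e. 0.20, edgeR adjusted p = 8.65e-05) and 41.8% of control. The SE effect at 72 h minus that at 36 h was -0.24 and did not pass (edgeR adjusted p = 0.66). Of the 10 members, Grin3a had the lowest Log2FC at 72 h. Its SE effect was 0.84 lower at 72 h than at 12 h on the log2 scale (s.e. 0.28, edgeR adjusted p = 0.0341).

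At SE 24 h, set against the average of the 3 control groups, Gria1 (Log2FC -0.85), Gria2 (-0.73), Gria3 (-0.83), Gria4 (-0.85) and Grin3a (-0.98) were lower beside Grin2c, with edgeR adjusted p between 0.000107 and 0.00277 for these 5. Without SE 24 h replicate 2 the Log2FC of Gria2 was -0.66 and just missed the threshold. Grin2b, at -0.58 (edgeR adjusted p = 0.00362), stayed under the fold threshold. At SE 6 h Gria2, Gria3, Grin2a and Grin2c had adjusted p of at most 0.05 with Log2FC between -0.63 and -0.42, and Grin1 had a Log2FC of 0.29 (edgeR adjusted p = 0.0304), none past 0.66. The count at 6 h moved between 1 and 3 as single libraries were left out: Grin2c was added without SE 6 h replicate 1 (-0.74), Gria2 and Grin2a without SE 6 h replicate 3 (-0.68 and -0.70), Grin2a without Ctr 12 h replicate 2 (-0.71), and Grin2a and Grin2c without Ctr 72 h replicate 2 (-0.69 for each).

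The size of the SE effect was compared between time points for all genes. Between 12 and 36 h, 1 member (Grin1) had a lower effect at 36 h, against 1.38% of all genes. Between 12 and 72 h, Gria2 had a higher effect at 72 h (background 12.3%) and Grin3a a lower one (background 6.31%). Between 36 and 72 h, Grin2c had a higher effect at 72 h by 1.23 on the log2 scale (s.e. 0.35, edgeR adjusted p = 0.0465), against 3.69%. Each of these 4 differences was lost without some single libraries, as given above for Grin1. The Gria2 difference was lost without Ctr 12 h replicate 1 or 3, SE 12 h replicate 2 or 3, Ctr 72 h replicate 3 or SE 72 h replicate 2 or 3 (0.63 to 0.73, edgeR adjusted p 0.0544 to 0.0842). The Grin3a difference was lost without Ctr 12 h replicate 2 or 3, SE 12 h replicate 1, Ctr 72 h replicate 1 or 2 or SE 72 h replicate 1 or 2 (-0.85 to -0.63, edgeR adjusted p 0.0502 to 0.0855). The Grin2c difference was lost without any Ctr 36 h or SE 72 h library, SE 36 h replicate 2 or 3 or Ctr 72 h replicate 2 (0.95 to 1.32, edgeR adjusted p 0.0512 to 0.123). Grin2b, whose effect was 0.79 lower at 36 h than at 12 h, did not pass (edgeR adjusted p = 0.0768), nor did Grin2c over the same interval (-1.16, edgeR adjusted p = 0.0658). Grin2b passed without Ctr 12 h replicate 3 (-1.04) and Grin2c without replicate 1 of SE 12 h (-1.33) or of SE 36 h (-1.50). Between 12 and 72 h Gria1 passed without Ctr 12 h replicate 2 (1.04) or SE 12 h replicate 1 (1.02), and Grin2a without Ctr 12 h replicate 2 (0.73), against 0.80 and 0.45 with all libraries. With all libraries, no difference between time points passed the test for the other 6 members.

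Between the control groups no member was called. Ctr 36 h against Ctr 12 h had a background of 0.0%, Ctr 72 h against Ctr 12 h of 0.931% and Ctr 72 h against Ctr 36 h of 1.97%. At an unadjusted p under 0.05 edgeR gave 2, 1 and 5 members in these comparisons, for which DESeq2 and limma-voom calls were not counted. Gria1, Gria2, Gria3, Grin1, Grin2a, Grin2b and Grin3a were nonetheless lower in all 3 Ctr 72 h libraries than in all 3 Ctr 36 h libraries, as were 14.9% of all genes, with Log2FC from -0.83 (Grin2a, edgeR adjusted p = 0.064) to -0.23 (Grin3a). For these genes Ctr 36 h was the higher and Ctr 72 h the lower reference.

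To set the receptor genes beside other neuronal transcripts of the same library, each member's log2 CPM was taken relative to the mean log2 CPM of 12 neuronal markers. Relative to these, all SE libraries lay below all controls for the 4 AMPA genes at 12 h (background 16%), for all 10 genes at 36 h (24.8%) and for Gria4 and Grin3a at 72 h (1.48%). The exact two-sided permutation test gives p = 0.1 for each of these, the smallest that 3 against 3 can give. At 36 h the difference between SE and Ctr ranged from -1.60 (Grin2c) to -0.80 (Grin2a) on this relative scale. At 72 h it was -0.84 for Grin3a, -0.36 for Gria4 and between -0.56 and 0.29 for the others. Ctr 72 h replicate 2 had the highest ganglion markers of all libraries. Its 12 neuronal markers summed to 11370 CPM, against 9231 and 9970 CPM in the other Ctr 72 h libraries. Within SE 12, 36 and 72 h, the library highest in ganglion markers also had the highest neuronal sum. SE 12 h replicate 1 had 8468 CPM, against 7981 and 7165 CPM. SE 36 h replicate 3 had 9469 CPM, against 7965 and 8522 CPM. SE 72 h replicate 1 had 7572 CPM, against 7046 and 6529 CPM. A higher reference lowers the relative value of a member. The part of these SE libraries and of Ctr 72 h replicate 2 in the relative values was not tested.

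The 8 CA1 pyramidal markers had a lower median themselves, though not every marker fell. Their median Log2FC was -0.51, -0.92 and -0.70 at 12, 36 and 72 h, with 2, 4 and 2 of 8 called lower and none called higher. Wfs1 lay above its controls at 36 h, with 245.6, 399.9 and 447.1 CPM after SE and 171.7, 162.4 and 165.2 CPM in controls. Relative to this list, Gria2 was the single member below controls in all libraries at 12 h (-0.25) and Grin1 the single member above (0.70), where 2.5% of all genes lay below and 56.3% above. No member was below at 36 or 72 h (background 0.881% and 0.441%). At 36 h Gria4, Grin1, Grin2a and Grin2d lay above, by 0.50 to 0.60 on the log2 scale, and at 72 h Gria1, Gria2 and Grin2a lay above, by 0.37 to 0.57. On this scale 80.9% of all genes lay above at 36 h and 43% at 72 h, beside 4 and 3 of the 10 members. The list held genes that differed among controls as well: Fibcd1 was at 461.6 to 545.4 CPM in Ctr 36 h and at 43.2 to 323.1 CPM in the other control libraries. The part of CA1 pyramidal cells in the lower receptor levels was not tested.

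**Figure D4:**
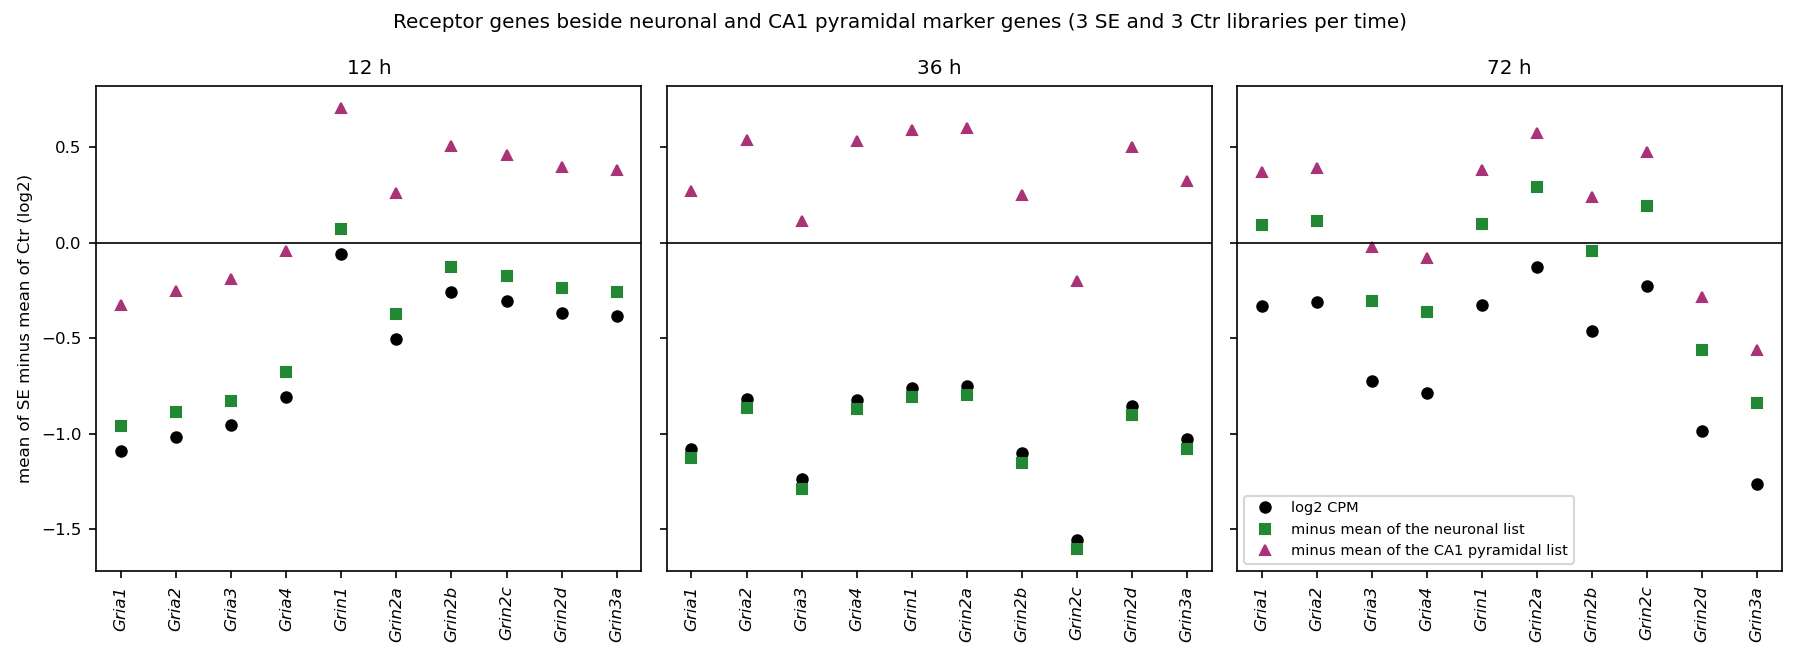
Difference between the mean of 3 SE and of 3 Ctr libraries at 12, 36 and 72 h for each receptor gene, in log2 CPM (circles) and after subtracting the mean log2 CPM of 12 neuronal markers (squares) or 8 CA1 pyramidal markers (triangles). At 36 h the squares lie between -1.60 and -0.80 and the triangles between -0.20 and 0.60.

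The make-up of each receptor class was compared as log2 ratios of per-length levels within a library, which do not depend on scaling between libraries. The ratio of Grin2a to Grin2b was -0.15 ± 0.22 in Ctr 12 h, 0.01 ± 0.03 in Ctr 36 h and -0.19 ± 0.16 in Ctr 72 h (SD, n = 3). In the SE groups it was -0.42 ± 0.20 (6 h) and -0.40 ± 0.23 (12 h), then 0.09 ± 0.11 (24 h), 0.37 ± 0.02 (36 h) and 0.14 ± 0.02 (72 h). All SE libraries of 36 and 72 h lay above their controls, by 0.35 and 0.34 (exact two-sided permutation p = 0.1 each, the smallest possible, and 0.346 after Benjamini-Hochberg adjustment over 38 tests). At 12 h the difference was -0.25 (exact permutation p = 0.2), and over all 15 SE and 9 control libraries, pooled without regard to time, it was 0.07 (permutation p = 0.587, 100000 resamples).

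The ratio of Gria1 to Gria2 was 1.03 ± 0.19 over the 9 controls and 0.85 ± 0.20 over the 15 SE libraries (SD). The difference of -0.17 had a two-sided permutation p of 0.0487 and did not pass adjustment over the 38 tests (0.346). This pooled test ignored time, and SE 6 h and SE 24 h had no control of their own time. The ratio was lowest at SE 6 h, at 0.63 ± 0.12 (SD, n = 3), and within 12, 36 and 72 h the groups overlapped with differences of -0.08, -0.26 and -0.02 (exact permutation p of 0.8, 0.3 and 1.0). Among the shares, that of Grin3a in the summed NMDA level was 4.596% at SE 72 h and 8.51% at Ctr 72 h, and that of Grin2c 5.19% at SE 36 h and 7.86% at Ctr 36 h, without overlap. They are 2 of the 8 shares at the smallest exact permutation p of 0.1 (Gria3, Grin2a, Grin2b and Grin2c at 36 h, Gria2, Grin2a, Grin2d and Grin3a at 72 h), none of which passed adjustment (0.346).

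**Figure D5:**
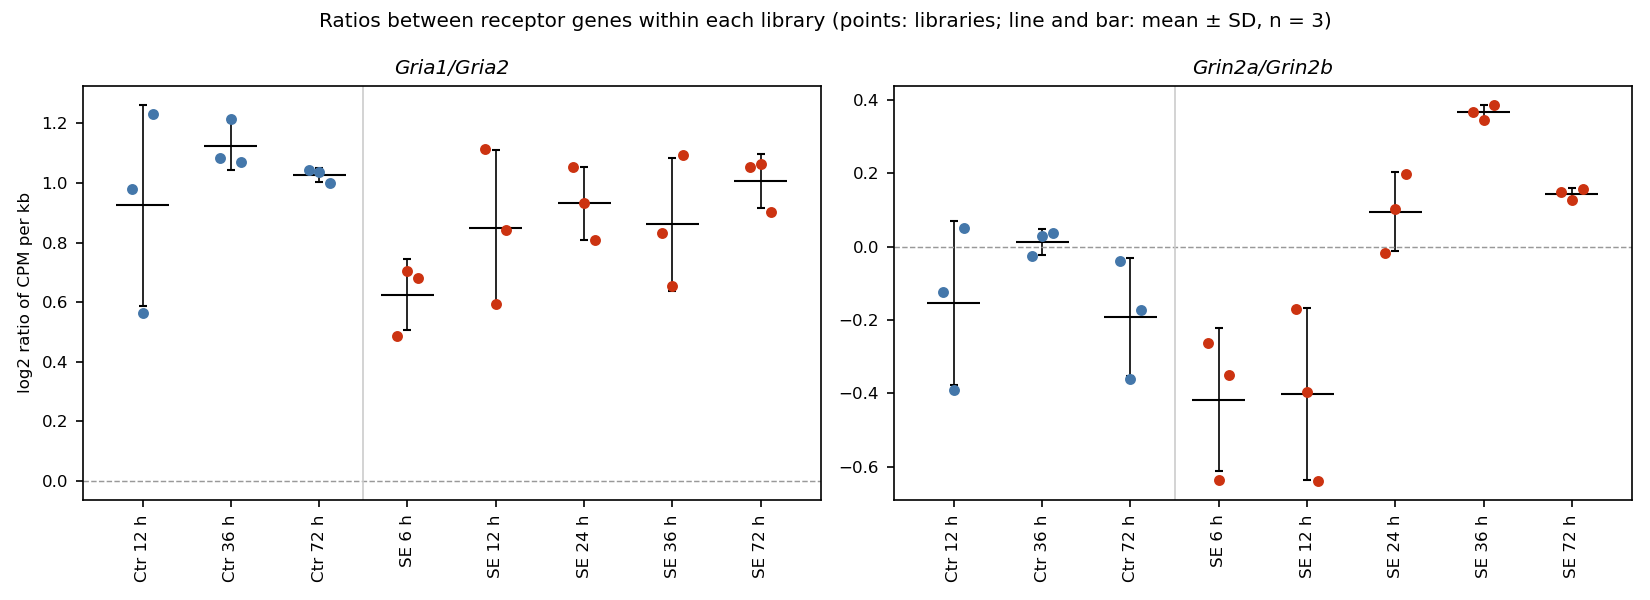
Log2 ratio of per-length levels of Gria1 to Gria2 (left) and Grin2a to Grin2b (right) in each library, with the mean and SD of each group (n = 3). The ratio of Grin2a to Grin2b lay between 0.35 and 0.39 in the SE 36 h libraries and between -0.64 and -0.17 in the SE 12 h libraries.

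Genes that work with these receptors were counted in lists by role. Over all genes, 13.9% rose and 11.4% fell at 12 h, 12.7% and 8.91% at 36 h, and 15.2% and 4.21% at 72 h, and several of the counts below lie near these shares. Of 8 other ionotropic subunits, 1 rose and 2 fell at 12 h, and 1 rose and 2 fell at 36 h. Grin3b, the second Grin3 subunit, rose at 12 h (Log2FC 2.51, s.e. 0.76, edgeR adjusted p = 0.0126) and 36 h (2.00, edgeR adjusted p = 0.0449), opposite in sign to Grin3a, which was not called at 12 h. The s.e. of Grin3b at 12 h was above that of every member (0.13 to 0.24), so its size is less certain. The kainate receptor subunits Grik2 (12 h, Log2FC -1.17) and Grik5 (36 h, -0.81) were lower once each. The list median was -0.50 at 12 h and 0.04 at 36 h.

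Of 18 auxiliary subunits and assembly factors of AMPA receptors, 1 rose and 3 fell at 12 h, 1 rose and 5 fell at 36 h and 1 rose at 72 h, with medians of -0.25, -0.55 and -0.25. Shisa7, an auxiliary transmembrane protein, was lower at 36 h (Log2FC -1.18, s.e. 0.15, edgeR adjusted p = 5.63e-06), and Frrs1l, an assembly factor of the endoplasmic reticulum, at 12 h (-0.95). The TARP genes Cacng3 (0.99 at 12 h, with overlapping groups) and Cacng5 (0.94 at 36 h and 1.13 at 72 h) rose. Of 14 trafficking partners, 2 rose and 2 fell at 12 h, close to the shares of all genes, 1 rose and 3 fell at 36 h, and 2 fell at 72 h. Nptx2, a secreted pentraxin that clusters AMPA receptors, rose by a Log2FC of 5.13 at 12 h and 3.29 at 36 h. Arc, the immediate early gene product that promotes AMPA receptor endocytosis, rose by 3.24 at 12 h and fell by 1.54 at 72 h on the log2 scale. Akap5, which anchors kinases and calcineurin at the receptor, was lower at 12 h (-1.75) and 36 h (-2.16), as was the adhesion molecule Lrrtm1 (-1.07 and -1.26).

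Of 15 postsynaptic scaffold genes, 3 rose and 1 fell at 12 h, 3 fell at 36 h and 1 fell at 72 h. Homer1 (Log2FC 1.92) and Dlgap2 (1.58) rose at 12 h, Dlgap1 fell at 36 h (-0.90), and Homer2 was lower at 12, 36 and 72 h (-0.88, -1.71 and -1.01). Of 12 kinases, phosphatases and editing enzymes, 1 rose and 6 fell at 12 h, 5 fell at 36 h and 3 fell at 72 h, with medians of -0.74, -0.48 and -0.18. Camk2a, the kinase of synaptic potentiation, was lower at 12, 36 and 72 h (Log2FC -1.07, -1.79 and -0.71), as was the editing-enzyme relative Adarb2 (-0.74, -1.41 and -1.08). Ppp3ca, the catalytic subunit of calcineurin, was lower at 12 h (-1.24) and 36 h (-1.44).

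The list of genes for the supply and clearance of NMDA receptor co-agonists moved otherwise. It held 12 genes, among them Ephb2, which has another role. Of these 12, 3 fell at 12 h, 2 rose at 36 h and 6 rose at 72 h, with medians of -0.23, 0.41 and 0.88. At 72 h the transporters Slc1a4 (Log2FC 1.02, s.e. 0.17, edgeR adjusted p = 0.000147), Slc6a9 (0.95) and Slc7a10 (0.85) and the serine synthesis enzyme Psat1 (0.94) were higher, and Slc7a10 had been lower at 12 h (-1.08). Several of these genes are known from astrocytes, whose 8 markers had a median Log2FC of 0.40 at 72 h, with 2 higher and none lower.

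Over the 24 libraries, which share group and composition differences, the log2 CPM of each member was correlated with 13726 genes as a description. Gria1 was most like Eps15 (Pearson r = 0.964), Nbea (0.946) and Gria2 (0.938), and Gria2 most like Gria1, Nbea (0.929) and the metabotropic glutamate receptor gene Grm5 (0.925). Gria3 was most like Gabbr1 (0.97), a GABA-B receptor gene, Camkv (0.964) and Ankrd63 (0.947). Gria4 was closest to Dcx (0.922), Ntsr1 (0.913) and Ankrd35 (0.91). Grin1 was closest to Wipf2 (0.941), Rasgrf1 (0.904) and Kctd13 (0.899), Grin2a to Evc2 (0.883), Pds5b (0.865) and Frrs1l (0.857), and Grin2b to Scn3b (0.924), Dlgap1 (0.923) and Chrm1 (0.918). Grin2c was closest to Fads1 (0.931), Adhfe1 (0.913) and Slc39a12 (0.907), and its r with the other 9 members was between 0.146 (Grin2a) and 0.628 (Gria4). Grin2d was closest to Dlx5 (0.852), Ppfia3 (0.852) and Carmil2 (0.841), and Grin3a to Ankrd63 (0.876), Rab3c (0.873) and Grk3 (0.871).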

How the data were processed

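RNA-seq counts per gene of 24 CA1 libraries were used. Per the methods and labels, the authors trimmed reads with Trim Galore 0.6.6, aligned them with STAR 2.7.8a to GRCm39 with GENCODE M26, used SAMtools 1.10, counted reads with HTSeq 0.13.5 without strand, and deposited whole-number counts without normalization. Symbols and positions came from a later GENCODE release on GRCm39 that matched 18552 of 18647 genes and left 95 unmatched, none of them a member. Because strand was ignored, reads of overlapping genes cannot be told apart. Upstream sequences came from a RefSeq table (GRCm38.p6) matched by symbol, which held 5 of the 10 members (not Gria1, Gria3, Grin2a, Grin2b or Grin3a).

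Counts were filtered with filterByExpr over the 8 groups (18153 genes), normalized with TMM and fitted in edgeR 4.0.16 (R 4.3.3) with group means and 1 RUVr factor (unwanted variation estimated from residuals), in 1 fit of all libraries. That factor mostly set Ctr 72 h replicate 2 (0.797) apart from replicates 1 (-0.383) and 3 (-0.374) of Ctr 72 h. In all other libraries it was at most 0.136 in size. Quasi-likelihood tests were adjusted over all genes tested (Benjamini-Hochberg). Genes were called at an adjusted p up to 0.05 and a Log2FC of 0.66 or more in size (1 or more for SE time points against each other). CPM used TMM library sizes and log2 CPM a prior count of 2. Levels between genes were divided by the canonical transcript length. Ratios and relative levels were compared with two-sided permutation tests (scipy), exact for 3 against 3, and were not recomputed with a library left out. DESeq2 1.42.0, limma 3.58.1, other normalizations and filters, a replicate block and leaving out each library were the alternatives, and leaving out 2 control libraries of 72 h together and using union exon length were chosen after seeing the data. The edgeR step was tested on simulated data. All 10 members are reported. From the role lists, genes called in a time-matched comparison were named, at most the 4 per list with the largest change, and some of these are not reported here. For likeness, the 3 genes with the highest r among those averaging a log2 CPM of 1 or more were named. The members and lists were chosen with earlier results of these data known.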

Additional observations from a re-analysis of the deposited data

Results flagged for a closer look

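Differences of the SE effect between time points that passed the test across all genes were found for 4 members. The effect on Grin1 was lower at 36 h than at 12 h (-0.70 on the log2 scale, from a Log2FC of -0.06 to -0.76). The effect on Gria2 was higher at 72 h than at 12 h (0.72, from -1.03 to -0.31), and that on Grin3a lower (-0.84, from -0.41 to -1.26). For Gria2 the control mean was lower at 72 h (813.5 CPM) than at 12 h (1023 CPM), while the SE mean was higher (658.1 against 502.2 CPM). The effect on Grin2c was higher at 72 h than at 36 h (1.23, from -1.45 to -0.22). Each of these 4 was lost in some of the fits that left out 1 library. The groups hold 3 libraries each, so no single library was flagged here as an outlier. Libraries that stood apart in markers or in total counts are named above.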

How the results depend on the processing

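No member changed direction across a call in any alternative. Of 1440 member values under alternatives other than leaving out single libraries, 1402 kept their side of the threshold, 18 lost and 20 gained a call, and over 1020 values with 1 library left out 964 kept it, 40 lost and 16 gained. Signs of 68 uncalled values changed. Direction and count held at 12 h (4 members), 36 h (10, or 8 with library totals only, where Grin1 at -0.63 and Grin2a at -0.62 fell short) and 72 h (4, or 3 with a factor for the range of library numbers) in every other such alternative. At 6 h, 6 members passed without a Log2FC threshold, 2 with a factor for the range of the library numbers in the labels and 3 without Ctr 72 h replicates 2 and 3 together, a setting chosen after seeing the data that leaves 1 control library at 72 h, assumed to vary like the others. From 24 to 36 h DESeq2 called 1 member, and from 36 to 72 h a fit of the compared groups only called 0. For the effect at 36 h minus at 12 h, 0 passed with no RUVr factor or library totals only, 3 with DESeq2 and 2 with limma-voom, and with the factor for library numbers 1 passed, Grin2b (-0.78) in place of Grin1 (-0.62). For 72 h minus 12 h, 0 passed with the compared groups only or without those 2 control libraries, and with the factor for library numbers Gria1 (1.54) and Grin2a (1.27) gained and Grin3a (-1.06) lost its call. For 72 h minus 36 h, 0 passed with no RUVr factor, DESeq2 size factors, library totals only or without those 2 libraries, and 3 with the factor for library numbers (Gria1, Grin2a and Grin2b, in place of Grin2c). In the fit of the compared groups only, Gria1 (0.71) passed for 72 h minus 36 h in place of Grin2c (1.19). The cause was not tested. With the CA1 pyramidal list in place of the neuronal list, members below controls numbered 1 at 12 h, 0 at 36 h and 0 at 72 h, where 2.5%, 0.881% and 0.441% of all genes lay below.

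Leaving out single libraries gave 4 to 5 members at 12 h, 8 to 10 at 36 h, 3 to 4 at 72 h, 1 to 3 at 6 h, 5 to 6 at 24 h, 0 from 6 to 12 h, 1 from 12 to 24 h, 0 to 1 from 24 to 36 h, 0 to 1 from 36 to 72 h, and 0 to 2, 0 to 3 and 0 to 1 for the effects at 36 minus 12 h, 72 minus 12 h and 72 minus 36 h. Replicate numbers did not pair the libraries: the correlation of same-numbered SE and Ctr deviations was between -0.201 and 0.181. A replicate block left every count as it was (4 at 12 h, 10 at 36 h, 4 at 72 h). The lowest total, 2663936 counts, limits Grin2d most, at 72 counts.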
